A study of Oryza sativa and Oryza rufipogon with 8 samples.

Results

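The NRAMP (natural resistance-associated macrophage protein) family of metal transporters was followed in rice roots under Fe deficiency. Its 7 members, *NRAMP1* to *NRAMP7*, were taken by gene identifier from the 35679 genes quantified in *O. sativa*. All 7 were found and passed the filter on low counts. The family was chosen with earlier results of these data known. The study had listed *NRAMP1* as up-regulated and *NRAMP7* as down-regulated under Fe deficiency in these data, so their directions are not independent evidence. Roots were compared after 5 days between plants supplied with 100 µM Fe-EDTA (the control condition, CC) and plants moved to a solution to which no Fe was added (−Fe). The plants were *O. sativa* cv Nipponbare and 1 accession of the wild rice *O. rufipogon* held by EMBRAPA, both at the 3-leaf stage and neither carrying a transgene or mutation by its labels, and both treatments had received 100 µM Fe-EDTA before the 5 days. Each species had 2 RNAseq libraries per treatment, so n = 2 for every mean, and each library was a pool of 3 plants or 3 biological replicates, which the sources word differently. Only *NRAMP1* and *NRAMP7* have an *O. rufipogon* partner in the sources used here, *ORUFI07G09420* and *ORUFI12G18860*, and both also passed the filter.

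NRAMP proteins sit in membranes and carry divalent metals such as Fe, Mn and Cd into the cytoplasm, either from outside the cell or from the vacuole, usually together with protons. In rice roots the family is known above all for Mn and Cd uptake through NRAMP5. For NRAMP1, a carrier of Fe, Mn and Cd, the study calls the function unclear and raises Fe uptake next to IRT1 as a hypothesis. NRAMP4, also called NRAT1, is the exception in the family, since it carries trivalent Al. *NRAMP3* is known from the nodes of the shoot, where its protein directs Mn to young tissues, and NRAMP2 has been placed at the vacuolar membrane.

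Of the 7 genes, *NRAMP1* was up-regulated under −Fe in *O. sativa*, *NRAMP4* and *NRAMP7* were down-regulated, and *NRAMP2*, *NRAMP3*, *NRAMP5* and *NRAMP6* did not pass the test. A gene was called when its Benjamini-Hochberg adjusted p in the quasi-likelihood test of edgeR was under 0.05, which held for 6.63% of the 25767 *O. sativa* genes tested. By direction, 2.98% of all genes were called higher under −Fe and 3.66% lower. The −Fe and CC libraries did not overlap for 6 of the 7 members, and the same held for 51.6% of all genes tested. The median log2 fold change of the family was 0.02, against -0.01 for all genes. In pooled roots, fewer cells of one type and less RNA per cell cannot be told apart.

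**Figure D1:**
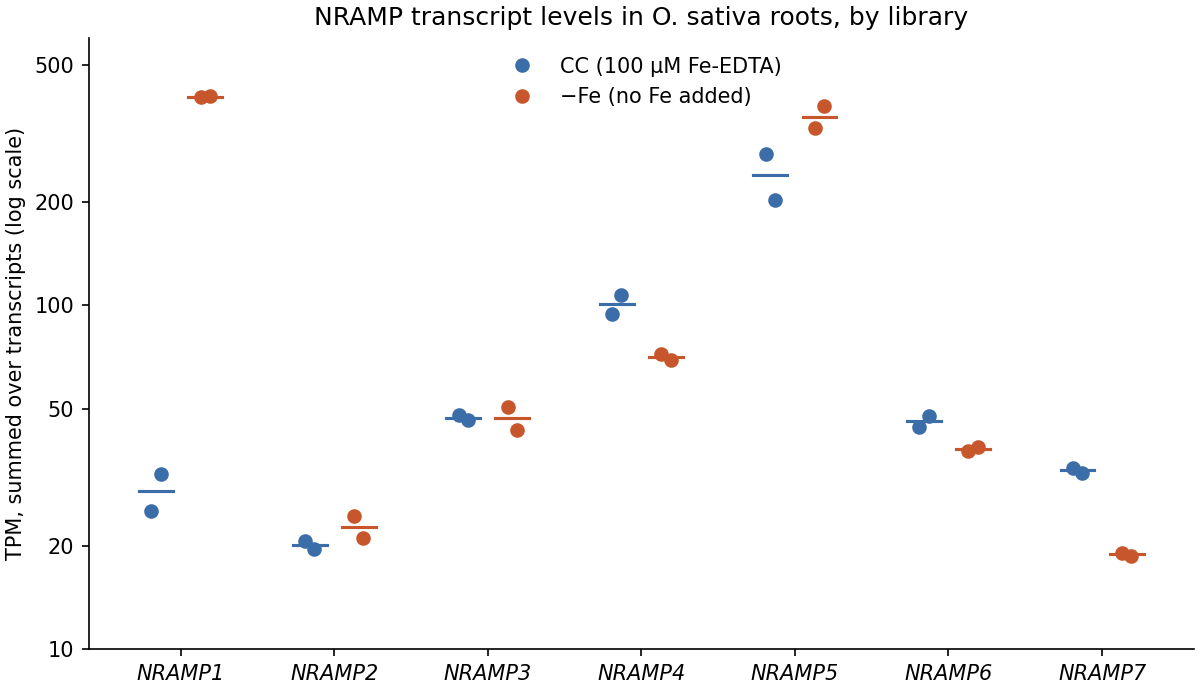
TPM (transcript abundance scaled to transcript length and library total, log axis) of each *NRAMP* gene in every *O. sativa* library; points are libraries and bars the mean of 2. *NRAMP1* moved from 25.3 and 32.4 TPM under CC to 404 and 405 TPM under −Fe, *NRAMP4* and *NRAMP7* lay lower under −Fe, and only *NRAMP3* overlapped between the treatments.

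*NRAMP1* (*OS07G0258400*, chromosome 7), a member with a hypothesized role in Fe uptake, had the largest response. Its level, as TPM summed over transcripts, was 25.3 and 32.4 in the CC libraries and 404 and 405 in the −Fe libraries. Both −Fe libraries were far above both CC libraries, and the −Fe libraries were nearly equal to each other. In TMM-normalized counts scaled to the library total (CPM) the mean was 47.1 ± 7.84 (SD, n = 2) under CC and 666 ± 20.9 under −Fe. This was a log2 fold change of 3.82 with a standard error (SE) of 0.128, or 14.1-fold, with an edgeR adjusted p of 1.13e-06. In size it was above that of 99.4% of all genes tested. The call held in 15 of 15 alternative settings of the analysis, with a log2 fold change between 3.66 and 4.0.

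*NRAMP1* has 2 annotated transcripts and both passed the test, where 3.39% of all *O. sativa* transcripts tested were called, 1.72% higher and 1.67% lower under −Fe. The longer transcript of 2082 nt carried between 88.5% and 94.0% of the gene's estimated counts in each library. It rose by 3.80 on the log2 scale (SE 0.118, edgeR adjusted p 0.00018), and the transcript of 1359 nt rose by 3.97 (SE 0.438, adjusted p 0.0452). The shorter transcript was at 2.26 and 5.41 TPM under CC and at 56.5 and 62.0 TPM under −Fe. It took 5.98% and 11.5% of the gene's counts in the CC libraries and 9.54% and 10.5% in the −Fe libraries, so the shares overlapped between treatments. In all, 4 of the 11 *NRAMP* transcripts tested were called, the other 2 being the single transcripts of *NRAMP4* and *NRAMP7*. Of the 4 calls, 3 were made with RLE factors, where that of *NRAMP4* moved from an adjusted p of 0.0494 to 0.0603, and 3 with no filter on low counts, where the shorter *NRAMP1* transcript had an adjusted p of 0.0718.

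*NRAMP5* (*OS07G0257200*), the main Mn and Cd uptake transporter of rice roots, lies on the same chromosome as *NRAMP1*, with 5 annotated genes starting between them in RefSeq, 2 of them protein coding. It had the highest level of the family under CC. The CC libraries had 276 and 202 TPM and the −Fe libraries 328 and 379 TPM. Both −Fe libraries lay above both CC libraries, but the CC libraries differed from each other by more than the gap between the treatments. The log2 fold change of 0.59 (SE 0.166) did not pass the test, with an edgeR adjusted p of 0.106. It was 0.83 without CC library 1 and 0.39 without CC library 2. The call depended on the setting, since the adjusted p was 0.00336 in DESeq2 and 0.0416 in edgeR without CC library 1. Over all 15 alternatives it ranged from 0.00336 to 0.382, and 3 of them passed, the last being a pairing of the libraries added after the data were seen.

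The spread of *NRAMP5* within a treatment had the same direction as that of some other genes, put side by side after their values were seen. The ratio of CPM in CC library 1 to CC library 2 was 1.35 for *NRAMP5*, 1.29 for *MTP9*, an Mn exporter, and 1.34 and 1.39 for *LSI1* and *LSI2*, the root Si channel and Si exporter. Between −Fe library 1 and −Fe library 2 the ratios were 0.826, 0.834, 0.815 and 0.781 in the same order of genes. Library 1 was thus the higher one under CC and the lower one under −Fe for all 4 genes. Other genes went the other way under CC, where library 1 was below library 2. This held for *NRAMP1* (41.5 and 52.6 CPM), *NRAMP4* (144 and 165 CPM) and the root marker *RCC3* (989 and 1339 CPM). *ART1* had the pattern of *NRAMP5*, at 1.37 and 0.898, as did *IRT1* and *DMAS*. Between the CC libraries 92.0% of all genes had a lower ratio than *NRAMP5*. The share of all genes with the pattern in both treatments was not counted. *LSI1* and *LSI2* were down-regulated under −Fe, *LSI1* at -1.45 (edgeR adjusted p 0.00368) and *LSI2* at -1.16 (adjusted p 0.0273) on the log2 scale. *RCC3*, the third root marker examined, had a log2 fold change of -0.91 that did not pass (adjusted p 0.077). The TPM of these 3 root markers summed to 4230 and 3976 under CC and 1620 and 2014 under −Fe, with none at 0, and the part of this difference in the *NRAMP* values was not tested. *MTP9* stood at 231 and 180 CPM under CC and 291 and 349 CPM under −Fe, with a log2 fold change of 0.64 (SE 0.145) close to that of *NRAMP5* and an adjusted p of 0.054.

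*NRAMP7* (*OS12G0581600*, chromosome 12) had the largest fall of the family. It stood at 33.7 and 32.5 TPM under CC and at 19.1 and 18.7 TPM under −Fe. The 2 libraries of each treatment were close to each other and the treatments did not overlap. Its level fell by 0.78 on the log2 scale (SE 0.0819), a 1.72-fold lower level, with an edgeR adjusted p of 0.000593. The adjusted p was under 0.05 in 14 of 14 alternatives, with a log2 fold change between -0.80 and -0.74, and the fall stayed below a 2-fold change in all of them. The name of this gene differs between sources, since RefSeq calls the gene on chromosome 12 *NRAMP6* and the gene on chromosome 1 *NRAMP4*, and *NRAMP7* and *NRAMP6* are used here for them as the identifiers were given.

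*NRAMP4* (*OS02G0131800*, chromosome 2), the Al transporter NRAT1, was the second most abundant member under CC. The CC libraries had 94.6 and 107 TPM and the −Fe libraries 72.3 and 69.3 TPM. All CC values were above all −Fe values. It fell by 0.49 on the log2 scale (SE 0.0867), 1.40-fold lower, with an edgeR adjusted p of 0.0113. The call held without CC library 1 (adjusted p 0.0265) but not without any of the other 3 libraries, where the adjusted p was 0.121 without CC library 2, 0.108 without −Fe library 1 and 0.0715 without −Fe library 2.

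*NRAMP6* (*OS01G0503400*, chromosome 1) showed 44.4 and 47.6 TPM under CC and 37.7 and 38.8 TPM under −Fe. The treatments did not overlap, but the log2 fold change of -0.24 (SE 0.0821) did not pass in edgeR (adjusted p 0.13) or in any of 14 alternatives. It is the member with the most transcripts, 5 in the annotation used, of which 1 of 2295 nt carried between 95.3% and 96.4% of the counts in each library and another was listed at 0 in all 4. The remaining 3 transcripts were each at 1.47 TPM or lower.

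The vacuolar *NRAMP2* (*OS03G0208500*, chromosome 3) was at 20.7 and 19.6 TPM under CC and at 24.4 and 21.1 TPM under −Fe. Both −Fe libraries were above both CC libraries, but the nearest libraries of the treatments were closer than the 2 −Fe libraries were to each other. The log2 fold change was 0.20 (SE 0.0925, edgeR adjusted p 0.281), and 0 of 14 alternatives passed. *NRAMP3* (*OS06G0676000*, chromosome 6), the Mn distributor of the nodes, was at 47.9 and 46.3 TPM under CC and at 50.6 and 43.5 TPM under −Fe. It was the only member whose treatments overlapped, with a log2 fold change of 0.02 (SE 0.0806, adjusted p 0.929) that took either sign among the alternatives, from -0.03 to 0.10.

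**Figure D2:**
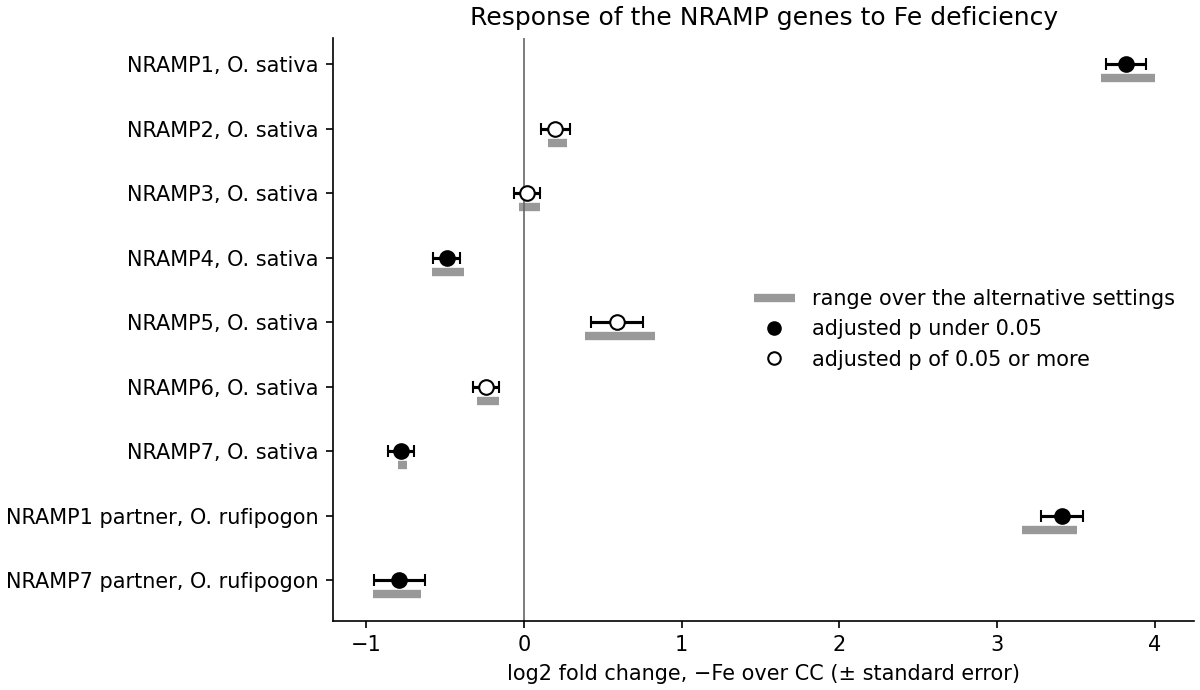
Log2 fold change of −Fe over CC for the 7 *O. sativa* genes and the 2 *O. rufipogon* partners, with the SE of the edgeR fit (n = 2 libraries per treatment); filled points have an adjusted p under 0.05 and grey bars span the alternative settings. *NRAMP1* stands at 3.82 and its partner at 3.41, while the remaining values lie between -0.79 and 0.59 and only *NRAMP3* has alternatives on both sides of 0.

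The order of the family by TPM, which accounts for transcript length, changed mainly through *NRAMP1*. Under CC the order from the highest mean was *NRAMP5* at 239 ± 52.6 TPM (SD, n = 2), *NRAMP4* at 101 ± 8.61, *NRAMP3* at 47.1 ± 1.14, *NRAMP6* at 46.0 ± 2.27, *NRAMP7* at 33.1 ± 0.812, *NRAMP1* at 28.8 ± 5.06 and *NRAMP2* at 20.1 ± 0.778. Of these neighbours only *NRAMP3* and *NRAMP6* overlapped in their libraries. Under −Fe *NRAMP1* came first at 404 ± 0.685 TPM, ahead of *NRAMP5* at 354 ± 35.9, and *NRAMP7* came last at 18.9 ± 0.285, below *NRAMP2* at 22.7 ± 2.33. No neighbours overlapped under −Fe, and both orders were the same with normalized counts per kilobase of effective length. With 2 libraries a side these orders are a description, since an exact permutation test could not give a two-sided p under 0.333.

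The summed TPM of the 7 genes was 543 and 487 in the CC libraries and 936 and 975 in the −Fe libraries. The ratio of the means was 1.86, and without *NRAMP1* it was 1.14. *NRAMP1* made up 85.1% of the gain. Its share of the family sum was 5.66% ± 1.42 (SD, n = 2) under CC and 42.3% ± 1.15 under −Fe, while that of *NRAMP5* was 46.2% ± 6.68 and 37.0% ± 2.69. There was thus far less *NRAMP1* than *NRAMP5* in the CC roots, with a TPM ratio of 0.0915 and 0.161 in the 2 libraries. Under −Fe both genes were of the same order, with ratios of 1.23 and 1.07.

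**Figure D3:**
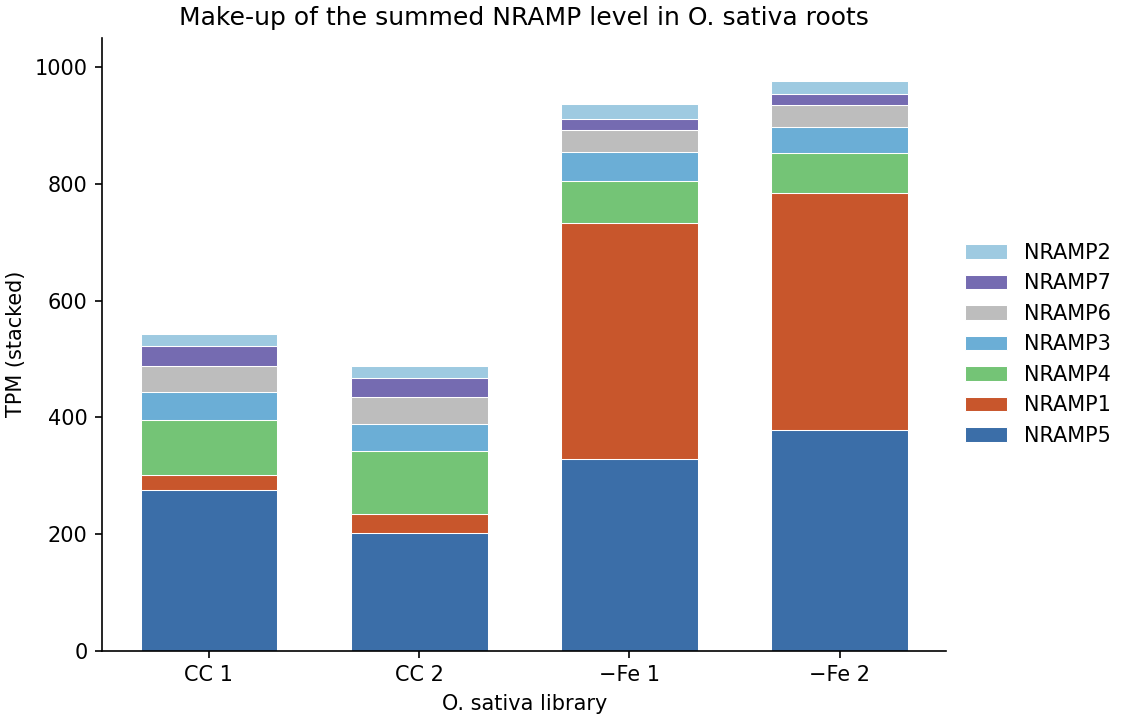
TPM of the 7 *NRAMP* genes stacked for each *O. sativa* library. The total rose from 543 and 487 TPM under CC to 936 and 975 TPM under −Fe, and *NRAMP1* went from 5.66% to 42.3% of it on average.

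The estimates of some members were not whole numbers, which shows that Kallisto divided reads between them and another locus. The estimated counts of *NRAMP2*, *NRAMP3* and *NRAMP7* were whole within 0.02 counts in all 4 libraries and those of *NRAMP6* in 3, while those of *NRAMP5* were whole in 1 and those of *NRAMP1* and *NRAMP4* in 0. For each of *NRAMP1*, *NRAMP4* and *NRAMP5* the sum with the next or a closely following locus number, *OS07G0258501*, *OS02G0131850* and *OS07G0257400*, was whole within 0.06 counts in all 4 libraries. *OS06G0612800* met the same condition for *NRAMP5* and was not used because it is on another chromosome, which does not exclude shared reads. How often such a sum is whole by chance was not counted, so which locus shared reads with *NRAMP5* was not settled. How these short loci lie relative to the *NRAMP* genes was not analysed here.

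*OS02G0131850* held between 19.5% and 23.3% of its summed counts with *NRAMP4*. The share was between 4.10% and 9.65% for *OS07G0257400* with *NRAMP5*, and between 0.761% and 2.09% for *OS07G0258501* with *NRAMP1*. These sums include reads of 1 locus alone, so they do not give the number of shared reads. *OS07G0258501* was estimated at 7.43 and 12.4 counts under CC and at 337 and 329 under −Fe, so that it moved in the direction of *NRAMP1*. With the counts of each pair summed, the log2 fold change was 3.84 for *NRAMP1* (edgeR adjusted p 1.19e-06), -0.50 for *NRAMP4* (edgeR adjusted p 0.011) and 0.58 for *NRAMP5* (adjusted p 0.181). The outcome of the test was thus the same for each of the 3 genes with the counts summed.

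**Figure D4:**
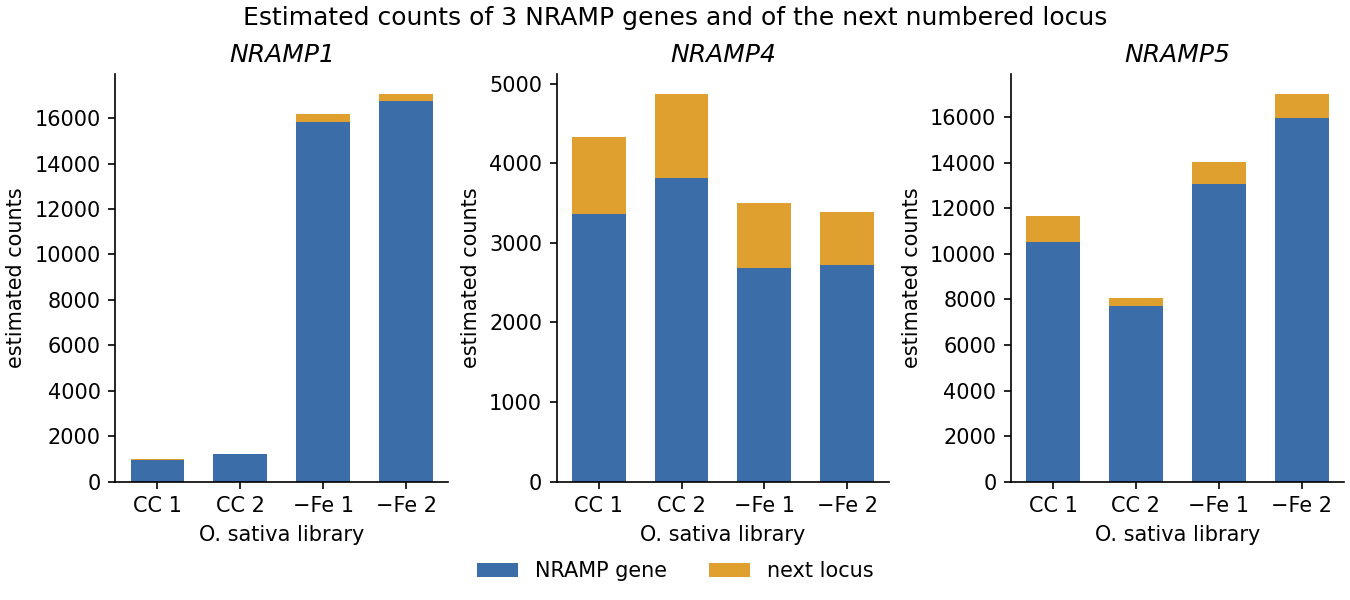
Kallisto estimated counts of *NRAMP1*, *NRAMP4* and *NRAMP5* (blue) and of the locus whose estimate sums with each to a whole number (orange), per *O. sativa* library. The second locus takes up to 23.3% of the pair for *NRAMP4* and no more than 2.09% for *NRAMP1*.

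In *O. rufipogon*, both partners were called in the same direction as in *O. sativa*. The study listed these pairs because they changed in both species in these libraries, so their direction is not independent evidence. Of the 21081 *O. rufipogon* genes tested, 16% were called, 11.9% higher and 4.15% lower under −Fe. The share of calls that were higher was 74.1%, against 62.0% with limma on TPM + 1, 62.2% with TPM + 0.1 and 63.9% with DESeq2.

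The *NRAMP1* partner was at 9.79 and 10.6 TPM under CC and at 103 and 95 TPM under −Fe. The −Fe libraries were again well clear of the CC libraries. It rose by 3.41 on the log2 scale (SE 0.133), 10.7-fold, with an edgeR adjusted p of 0.000673 and a call in 14 of 14 alternatives. The *NRAMP7* partner was at 24.5 and 29.3 TPM under CC and at 13.4 and 14.9 TPM under −Fe, again with no overlap. It fell by 0.79 on the log2 scale (SE 0.16, adjusted p 0.0257), but the adjusted p was 0.329 without −Fe library 1 and 0.232 without −Fe library 2. In the test on single transcripts, which called 3.61% of all *O. rufipogon* transcripts, it was 0.0855.

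Whether the size of the response differed between the species was asked with the interaction of species and treatment, fitted on 102 ortholog pairs taken from the study, of which 35.3% were called. The response of *NRAMP1* was smaller in *O. rufipogon* by 0.41 on the log2 scale, as an interaction of -0.41 (SE 0.199, 95% interval from -0.84 to 0.02), and did not pass with an edgeR adjusted p of 0.14. It was -0.25 without *O. sativa* CC library 1 and -0.59 without *O. sativa* CC library 2, with adjusted p between 0.058 and 0.385 when single libraries were left out. For *NRAMP7* the interaction was -0.01 (SE 0.206, 95% interval from -0.46 to 0.43, adjusted p 0.972). Both intervals include 0 and also differences of 0.41 in size, so a p that misses the threshold does not show that the species respond alike. Each species was quantified on its own transcripts, so the levels stand side by side without a test. The *NRAMP1* mean was 47.1 CPM in *O. sativa* and 15.2 ± 1.06 CPM in *O. rufipogon* under CC, and 666 and 162 ± 13.2 CPM under −Fe. That of *NRAMP7* was 54.2 ± 0.729 and 30.5 ± 4.24 CPM under CC, and 31.5 ± 0.573 and 17.6 ± 0.916 CPM under −Fe.

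**Figure D5:**
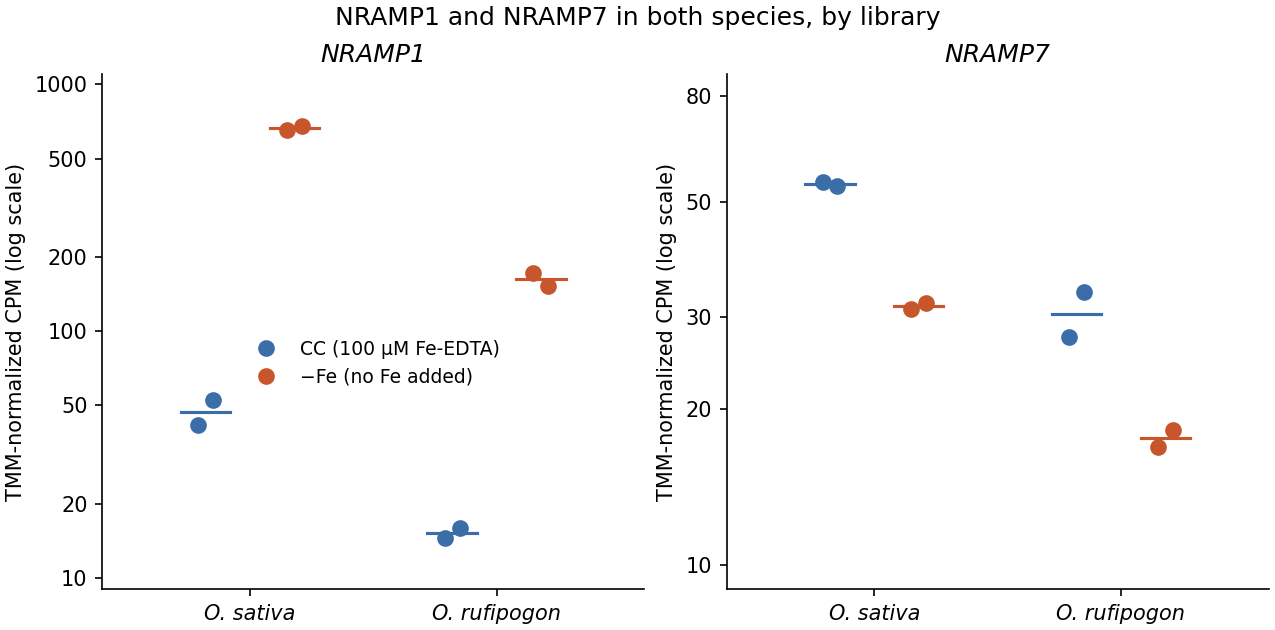
TMM-normalized CPM (log axes) of *NRAMP1* and *NRAMP7* in each library of both species; points are libraries and bars the mean of 2. *NRAMP1* rose in both species, to a mean of 666 CPM in *O. sativa* and 162 CPM in *O. rufipogon*, and *NRAMP7* fell in both, to 31.5 and 17.6 CPM.

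The response of *NRAMP1* was set beside that of 13 genes of Fe uptake and its regulation named by the study. Among them are *IRO3*, *HRZ1* and *HRZ2*, which the study describes as negative regulators. The study listed all of them as up-regulated in these samples, so their direction is not independent evidence. Of the 13 genes, 13 rose and 0 fell in *O. sativa*, with a median log2 fold change of 3.16, where 2.98% of all genes were called higher. *IRT2*, a second ferrous Fe transporter, was the only one with a larger log2 fold change than *NRAMP1*. It was at 0.633 and 0.766 TPM under CC and at 9.94 and 13.1 TPM under −Fe, with a log2 fold change of 4.07 (SE 0.279, edgeR adjusted p 4.91e-05). *IRT1*, the main ferrous Fe transporter of rice roots, went from 75.5 and 58.3 TPM to 249 and 267 TPM, a smaller log2 fold change of 1.98 (SE 0.129, adjusted p 0.000162). The −Fe level of *NRAMP1*, at 404 and 405 TPM, was thus above that of *IRT1* in these roots, while its CC level was below it.

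Of all genes tested, 2.98% were called higher and 3.66% lower under −Fe. Among 8 other carriers of Mn, Cd or vacuolar metals, 3 rose, 1 fell and 4 were not called, with a median log2 fold change of 0.38. The largest rise was that of *YSL2*, a carrier of Fe and Mn bound to nicotianamine, from 0.171 and 0.303 CPM under CC to 1.44 and 4.55 CPM under −Fe (log2 fold change 3.63, SE 0.719, edgeR adjusted p 0.0385), at low levels and with −Fe libraries far apart. The fall was that of *VIT2*, a transporter of Fe into the vacuole, from 36.8 and 39.2 TPM to 16 and 16.9 TPM (log2 fold change -1.18, SE 0.114, adjusted p 0.000383). Of these 8 genes, 2 were called without CC library 1 or −Fe library 1, and 1 without CC library 2 or −Fe library 2.

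Of 6 Al tolerance genes set beside *NRAMP4*, 2 rose, 0 fell and 4 were not called, with a median log2 fold change of -0.06. The shares of all genes tested were 2.98% called higher and 3.66% called lower under −Fe. *STAR1*, part of an Al tolerance transporter of the ABC type, rose from 13.8 and 11.1 TPM to 28.2 and 32.2 TPM (log2 fold change 1.30, SE 0.139, edgeR adjusted p 0.000739). *ALS1*, a vacuolar Al transporter, was at 43.6 and 40.2 TPM under CC and 71.4 and 70.4 TPM under −Fe (log2 fold change 0.78, SE 0.0766, adjusted p 0.000412). *ART1*, the transcription factor that drives *NRAMP4* and these genes under Al, had overlapping treatments, at 28.3 and 20.4 TPM under CC and 24.5 and 26.1 TPM under −Fe, and was not called (adjusted p 0.837). *STAR2*, the partner of STAR1, had a log2 fold change of -0.53 (SE 0.218), similar in size to that of *NRAMP4*, from 9.43 and 5.88 TPM to 5.06 and 5.46 TPM, and did not pass (adjusted p 0.216). *FRDL4* and *MGT1* were at -0.20 (SE 0.536) and -0.19 (SE 0.155) on the log2 scale and were not called either. *FRDL4* had only 11 and 13 estimated counts under CC and 12 and 10 under −Fe, so its missing call says little.

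The genes most like *NRAMP1* and *NRAMP7* were found by the Euclidean distance between centred log2(CPM + 0.5) values over the 4 *O. sativa* libraries, among 13222 genes with a mean of at least 10 CPM. The nearest to *NRAMP1* were *OS10G0439924* at a distance of 0.0957 and *OS03G0725200* at 0.13, which have no symbol in the sources used here. Their log2 fold changes were 3.99 and 4.21, at lower CPM than *NRAMP1*. *OS10G0439924* was at 3.0 and 3.81 CPM under CC and at 50.5 and 57.8 CPM under −Fe. *OS03G0725200* was at 0.943 and 1.39 CPM under CC and at 22.3 and 21.0 CPM under −Fe. Both reached the mean of 10 CPM only through the −Fe libraries, so the filter itself favoured genes that were high there. The nearest to *NRAMP7* were *OS11G0126800*, annotated as a GDA1/CD39 family nucleoside phosphatase, at 0.0573 and *OS03G0314500*, with a WD40-like domain, at 0.059, with log2 fold changes of -0.82 and -0.76. With 4 libraries in 2 treatments, such a likeness mostly reflects a similar difference between the treatments.

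The total of estimated counts was between 22911261 and 25312301 in the *O. sativa* libraries and between 14758304 and 18857150 in those of *O. rufipogon*. Every *O. sativa* member had at least 751 estimated counts in each library, and the smallest value of a partner was 216. Of the 5 leaf markers examined (*RBCS2*, *RBCS4*, *CAB1R*, *CAB2R* and *RCA*), 0 were called in edgeR and none was at 0, and their summed TPM of 233 and 342 under CC and 314 and 131 under −Fe was below that of the root markers in every library.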

How the data were processed

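Root RNA of 2 rice species was sequenced as single-end reads of 50 nt, in 8 libraries grouped by their labels. The authors discarded reads of low quality (PHRED below 30), used Trim Galore against adapters, removed 12 nt from the read start and estimated the abundance of each transcript with Kallisto (versions not given in the sources used here); the submitters' processing notes name the build IRGSP-1.0. The deposited tables hold estimated counts and TPM per transcript, for 42346 transcripts in *O. sativa* and 47456 in *O. rufipogon*, each species on its own transcripts. The deposited effective length was the transcript length minus 31 nt for every transcript.

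Here, the estimated counts were summed over the transcripts of a gene and rounded. A gene entered the test of a species if 2 or more of its 4 libraries had 5 or more counts, and edgeR 4.0.16 in R 4.3.3 was used (TMM normalization, robust quasi-likelihood fit, no covariates) with Benjamini-Hochberg adjustment over all genes of the species. The fits were also run on simulated counts, with levels taken from these data. The SE is the log2 fold change over the root of the F statistic. Families, lists and tests were chosen with earlier results of these data known. All 7 members and both partners are described, with the genes of each list past the threshold that changed most, and the nearest genes of *NRAMP1* and *NRAMP7*; *NRAMP5*'s companions, *IRT1*, *DMAS*, *ALS1*, *STAR2*, *FRDL4*, *MGT1* and *ART1* were added after their values were seen. RefSeq (assembly ASM3414082v1, a different build) gave only names and neighbours, and no sequence was analysed here. The replicate numbers 1 and 2 do not pair the libraries by any label. The libraries of a treatment differed by more than counting noise, and p-values measure only the spread between these pools. Chi-square over degrees of freedom lay between 4.69, for *O. rufipogon* −Fe, and 26.7, for *O. rufipogon* CC. Alternatives were DESeq2 1.42.0, limma 3.58.1 on log2(CPM + 0.5), log2(TPM + 1) and log2(TPM + 0.1), RLE factors, other filters, a minimum log2 fold change of 1, single transcripts, a replicate block and leaving out each library. Summing counts with the locus taken to share reads and a crossed pairing were chosen after seeing the data.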

Additional observations from a re-analysis of the deposited data

How the results depend on the processing

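Of 138 values of single members under the alternatives, 123 kept their direction and side of the threshold, 9 lost the call, 3 gained it and 3 changed sign. All 3 sign changes were those of *NRAMP3*, at -0.0044 with limma on TPM + 1, -0.0045 on TPM + 0.1 and -0.03 without −Fe library 1 (range without single libraries -0.03 to 0.10). A minimum log2 fold change of 1 left 1 called member in *O. sativa* and 1 partner in *O. rufipogon*, as did the test on single transcripts for the partners (1). Without single libraries, 2 to 4 *O. sativa* members, 1 to 2 partners and 1 to 2 carriers of Mn, Cd or vacuolar metals were called, and the interaction of *NRAMP7* ranged from -0.17 to 0.14. The replicate block called 3 *O. sativa* members and 3 *NRAMP* transcripts, against 3 and 4 without it, and changed no call of a member or partner gene. Under it 12 of the 13 genes of Fe uptake and its regulation were called, without *DMAS* (edgeR adjusted p 0.147). *LSI1* and *LSI2* were not called under the block (0.126 and 0.281) and *RCC3* was (0.000382). RLE factors and no filter gave 3 *NRAMP* transcripts each. Over all genes, deviations of same-numbered libraries correlated only weakly, at -0.124 in *O. sativa* and 0.064 in *O. rufipogon*. A pairing that touches only some genes was not tested by this. The crossed pairing called 4 members and 2 transcripts in *O. sativa*. Over all genes, 1709 were called in *O. sativa*, against 613 to 1194 without single libraries, and 3378 in *O. rufipogon*, against 112 to 9604. Log2(TPM + 0.1) moved the median log2 fold change of all *O. rufipogon* genes to -0.11. The causes of these changes were not tested. A level of 3 counts, taken by choice as the floor of a library, was between 0.119 and 0.203 CPM, below the level of every member in every library. The planned protein and promoter description was not run.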
